A study of Mus musculus with 44 samples.

Results

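Alveolar macrophages sorted from mouse lungs 7 days after bleomycin were compared between recipients of aged and of young bone marrow. They gave 7 of the 44 libraries in the series, 4 with aged marrow (aged 1 to 4) and 3 with young marrow (young 1 to 3), chosen by population, day and marrow age as the columns of the count table were assigned below. All animals carried the label Bl6. The recipients were young, received marrow from young or aged donors, and were then given bleomycin, which damages the lung lining and is followed by scarring, through the trachea at 1 U/kg. All groups used here therefore share transplantation and bleomycin, and no uninjured or untransplanted group was analysed here. Ages in weeks or months, the conditioning of the recipients and any mark that separates donor from host macrophages were not stated in the labels. Each library came from 30000 to 80000 sorted cells, and nothing in the labels ties a library to an animal of its own. The p-values therefore measure only how libraries vary, and this variation may be technical.

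Alveolar macrophages live in the air spaces, where they clear surfactant, debris and microbes. Their identity depends on GM-CSF, which induces the lipid-handling regulator PPAR-gamma, and on TGF-beta. After injury, monocytes enter the lung and mature into macrophages that at first differ from the resident ones in genes such as Apoe and Spp1. Macrophages with high Spp1, Trem2 and Gpnmb are a known feature of fibrotic lungs.

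The columns of the count table had to be assigned before any comparison. The 44 printed headers were sorted bytewise, and the title belonging to sorted header number i was given to data column i. By this order the aged libraries are data columns 4 to 7 and the young libraries data columns 11 to 13. The printed headers at these positions name other samples (monocyte and MoAM libraries of the same day), and the rule and the header named the same sample in 0 of 44 columns. Lineage genes support the sorted order and go against the printed headers. Of the 13 libraries with the highest Siglecf, a surface lectin of alveolar macrophages, 13 were alveolar macrophages by the sorted order and 0 by the printed headers, and the counts were 13 and 0 for Car4 and for Fabp4 as well. The 7 libraries with the highest Marco, and likewise the 7 with the highest Krt79, were all 7 of the day 7 alveolar macrophage libraries by the sorted order and 0 of them by the headers. For Ly6c2, a marker of classical monocytes, the 5 highest libraries were 5 monocyte libraries by the order and 0 by the headers. These genes speak for the order, so population differences in them are not offered as results. They do not test which libraries within alveolar macrophages came from aged marrow: that rests on the order alone. Read by the printed headers, the same comparison called 1165 genes in place of 344.

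**Figure D1:**
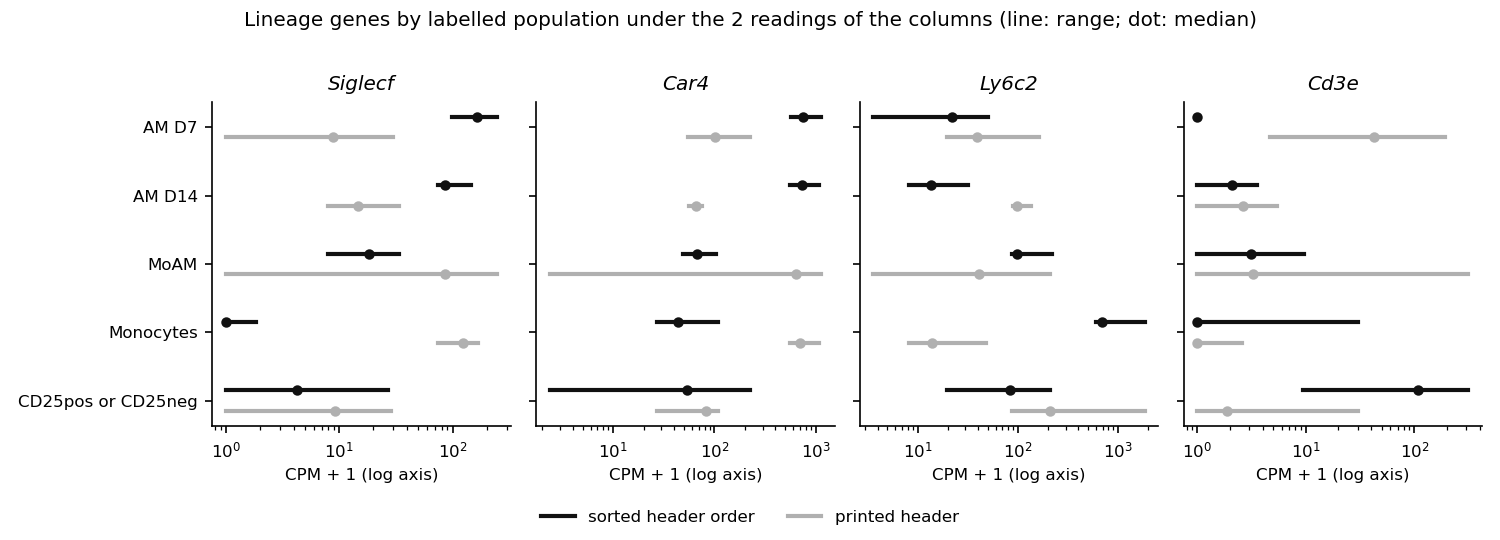
CPM over the library total plus 1 (log axis) of 4 lineage genes by labelled population; each line spans the libraries of a population and each dot is their median, black with columns assigned by the sorted headers and grey with the printed headers. By the sorted order Siglecf ran from 98.5 to 247 CPM in the 7 libraries of alveolar macrophages at day 7, against 7.03 to 32.96 CPM in MoAM, and Cd3e was 0 in all 7.

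The alveolar macrophage libraries were among the shallowest of the series. Total counts were 126283 to 893561 with aged marrow and 365949 to 1198138 with young marrow, where the 44 libraries had a median of 1780800. By the sorted order the headers of all 7 carried the same number (1396), and the headers do not say what it stands for. No library was a copy of another. Levels are given as TMM-scaled CPM, which corrects counts for library size, in the order aged 1 to 4, then young 1 to 3. A gene was called where edgeR's quasi-likelihood test gave a p under 0.05 after Benjamini-Hochberg adjustment across the tested genes. Every adjusted p below comes from that test.

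Of 8614 genes tested, 344 were called (3.99%): 198 were higher with aged marrow (2.3%) and 146 lower (1.69%). The median log2 difference over all genes tested was -0.00050. At an unadjusted p under 0.05 there were 1552 genes. The count of called genes was 114 without young 3, the deepest of the 7 libraries, 206 without aged 4 and 218 without young 2. It fell to 47 in a fit in which all 44 libraries of 5 populations shared 1 estimate of the spread. Of the 94 called genes named below or in the lists, 16 kept their call in that fit: Nr4a1, Nr4a2, Nfkbia, Cxcl2, Sf3b1, Tgif1, Hp, Ly6a, Ebf1, Bank1, Pax5, Slamf7, Slfn5, Lacc1, Marcks and Il1r1. For the others, among them Spp1 (adjusted p = 0.343 there) and Fabp4 (0.0767), the call was lost in that fit, which also tested more genes (12940) and scaled all libraries together. The differences themselves stayed near their size there, at 1.54 (log2) for Spp1 and 1.72 for Fabp4.

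The libraries kept the genes by which alveolar macrophages are known. Of the 25 resident markers, 24 were tested: 2 rose (Fabp4 and Bhlhe41), 2 fell (Mrc1 and Car4), and the median log2 difference was 0.11. Siglecf was at 167, 127, 265 and 105 CPM with aged marrow and at 133, 160 and 175 CPM with young marrow, and the groups overlapped (log2 difference 0.02, SE 0.28, adjusted p = 0.985). Overlap between the groups was also seen for the scavenger receptor Marco (log2 0.56, SE 0.26, adjusted p = 0.236) and for the keratin Krt79 (0.21, SE 0.48, adjusted p = 0.884). Pparg itself, the integrin chain Itgax, the GM-CSF receptor chains Csf2ra and Csf2rb and the chitinase-like Chil3 did not pass the test (adjusted p from 0.477 for Pparg to 0.801 for Csf2rb). The summed level of the whole resident list was 35848 to 40254 CPM with aged marrow and 35950 to 38654 CPM with young marrow. Chil3 alone was at 14340 to 17940 CPM in these libraries when scaled together with the day 7 MoAM libraries. The sum therefore says little about less abundant members such as Siglecf.

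Genes known from macrophages in scarring tissue rose with aged marrow. Spp1, which encodes the secreted matrix protein osteopontin, was at 3665, 4099, 3583 and 4320 CPM with aged marrow and at 1284, 1598 and 1018 CPM with young marrow. The lowest aged library was above the highest young one, and the means differed 3.01-fold (log2 1.599, SE 0.14, adjusted p = 1.57e-12, higher in 4 of 4 aged libraries). Cd63, a tetraspanin of late endosomes, was at 1111, 1421, 1440 and 1365 CPM against 742, 719 and 707 CPM, again without overlap (log2 0.89, SE 0.14, adjusted p = 1.38e-05). In sorted bulk cells, more cells with a transcript and more transcript per cell cannot be told apart.

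Some genes typical of monocyte-derived cells were also higher. Apoe, the lipoprotein carrier of cholesterol, was at 71.4, 220.5, 134 and 284 CPM with aged marrow and at 19.4, 49.0 and 50.02 CPM with young marrow (log2 2.22, SE 0.30, adjusted p = 1.67e-05). The groups did not overlap, and aged 1 was the lowest of the aged libraries. Trem2, a lipid-sensing receptor, was at 143, 134, 88.3 and 157 CPM against 74.7, 82.5 and 70.7 CPM (log2 0.81, SE 0.24, adjusted p = 0.0411), and Gpnmb, a lysosomal glycoprotein of lipid-laden macrophages, differed 1.47-fold (log2 0.54, SE 0.16, adjusted p = 0.0357). These last 2 calls were marginal: Trem2 lost its call in 6 of the 7 fits that left out 1 library, with adjusted p up to 0.191 without young 3, and Gpnmb in all 7, with adjusted p up to 0.166 without young 2.

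Of the 36 genes in the profibrotic macrophage list, 34 were tested, 12 rose and 1 fell, with a median log2 difference of 0.51 beside -0.00050 over all genes. Among the 12 were Spp1, Apoe, Cd63, Fabp5, Ccl2, Arg1, Trem2, Gpnmb, Thbs1, Mmp14 and Ctsl. The one that fell was Fn1, which encodes the matrix protein fibronectin, at 452, 513, 393 and 589 CPM with aged marrow and at 872, 876 and 761 CPM with young marrow (log2 -0.76, SE 0.14, adjusted p = 0.000258). Members that did not pass include Mmp12, a metalloelastase (log2 -0.37, adjusted p = 0.582), and Tgfb1 (0.35, adjusted p = 0.676), and Il10 was too low to be tested. Without young 3 the called members numbered 7 in place of 13, in the fit of all libraries 0. Arg1, arginase 1, rested on 25 counts over the aged libraries and 1 over the young. Aged 1 held none, and the ratio of counts per total was 29.7 with a 95% interval of 4.87 to 1221, which covers counting error only. Without young 3 its call was lost (adjusted p = 0.101).

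The list of monocyte-derived macrophage markers, which shares Spp1, Apoe and others with the profibrotic list, had 8 higher and 1 lower of 19 tested, and held 5 calls in place of 9 without young 3. Its summed level was 9860 to 11401 CPM with aged marrow and 6491 to 7111 CPM with young marrow. Spp1 alone gave 3583 to 4320 CPM of this with aged marrow and 1018 to 1598 CPM with young marrow. Cd63 gave 1111 to 1440 CPM against 707 to 742 CPM. Much of the gap between the sums came from Spp1 and Cd63, so the sum by itself does not show a rise across the list. Gene by gene, 16 of the 19 tested had a positive difference and 3 a negative one. The median log2 difference was 0.81, beside -0.00050 over all genes tested. C1qa, a complement chain and one of the 8, was at 23.8, 65.1, 45.8 and 116 CPM against 58.1, 28.4 and 17.2 CPM, so the groups overlapped, and its call was lost without aged 4 (adjusted p = 0.355). C1qb and C1qc, of the same list, were not called and overlapped as well. C1qb was at 23.8, 39.8, 26.2 and 69.5 CPM against 49.8, 7.7 and 16.4 CPM. C1qc was at 31.7, 28.9, 13.1 and 51.5 CPM against 30.4, 30.9 and 23.3 CPM. The levels of the population named MoAM, taken here as monocyte-derived alveolar macrophages, are given beside these values. On a scale common to both populations at day 7, C1qa was at 1475 to 1898 CPM in the 8 MoAM libraries and at 17.5 to 119 CPM in the 7 alveolar macrophage libraries, and Apoe at 2664 to 3281 CPM against 19.8 to 292 CPM. Spp1 on that scale was at 1687 to 3452 CPM in MoAM and at 3591 to 4438 CPM in alveolar macrophages with aged marrow, above every MoAM library. Fabp4 was at 17.6 to 39.1 CPM in MoAM and at 487 to 727 CPM in the aged alveolar macrophages. It was among the genes that spoke for the column order, so this population difference is given as a level and not as a result. What part MoAM-like cells had in the rise of Apoe, C1qa, Spp1 and Fabp4 was not tested.

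Fabp4 and Fabp5 rose with aged marrow, in a list of lipid handling genes most of which did not pass the test. Fabp4, a fatty acid binding protein induced by PPAR-gamma and a marker of alveolar macrophages, was at 484, 723, 710 and 673 CPM with aged marrow and at 224, 173 and 173 CPM with young marrow. The means differed 3.41-fold without overlap (log2 1.80, SE 0.19, adjusted p = 6.23e-10). The related Fabp5 was at 619, 806, 668 and 896 CPM against 423, 351 and 422 CPM (log2 0.92, SE 0.16, adjusted p = 0.000126). Other genes tied to the same axis fell. Cebpa, a myeloid transcription factor, was at 103, 134, 71.98 and 125 CPM against 210, 250 and 208 CPM (2.06-fold by the means, adjusted p = 0.00188). Car4, carbonic anhydrase 4, was at 619, 719, 792 and 611 CPM against 919, 866 and 1162 CPM, close to the threshold (adjusted p = 0.0461), and lost its call in 5 of 7 fits that left out a library, with adjusted p up to 0.306 without young 3. In all, 3 members of the GM-CSF and PPAR-gamma list rose (Fabp4, Fabp5, Bhlhe41) and 5 fell (Cebpa, Car4, Bhlhe40, Socs2, Angptl4) of 28 tested, and its median log2 difference was -0.18. Without young 3 the called members of that list numbered 4 in place of 8. Bhlhe41, a transcriptional repressor, was at 278, 239, 265 and 159 CPM against 155, 108 and 79.4 CPM (log2 1.05, SE 0.27), with adjusted p up to 0.181 when young 3 was left out. In the list of surfactant and lipid handling genes 4 of 29 rose (the 2 Fabp genes, Apoe and Npc2), the median log2 difference was -0.20, and 2 fell, among them Cpt1a, which acts in fatty acid oxidation; without aged 3 the list held 3 calls.

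Of 12 MHC class II genes tested 4 rose and 0 fell (at an unadjusted p under 0.05, 4 higher and 0 lower; DESeq2 called 4 and limma voom 3, all higher). H2-Aa was at 1594, 1453, 1721 and 1523 CPM with aged marrow and at 1024, 794 and 1017 CPM with young marrow. H2-Ab1 was at 992, 1153, 1217 and 1268 CPM against 689, 714 and 661 CPM, and Cd74, the invariant chain that guides class II molecules, at 722, 687, 805 and 674 CPM against 396, 430 and 408 CPM. In each case the groups did not overlap, with log2 differences of 0.73 (SE 0.15, adjusted p = 0.00228), 0.76 (SE 0.15, adjusted p = 0.000503) and 0.81 (SE 0.15, adjusted p = 0.000248). H2-Eb1 differed by 0.76 on the log2 scale (SE 0.16, adjusted p = 0.00186). All 4 stayed called without each of the 7 libraries in turn. Of 15 MHC class I genes tested 2 rose, B2m and H2-T23. H2-T23 lost its call in 5 of the 7 fits that left out a library, and with limma voom. B2m, the light chain, was at 6552, 5617, 6217 and 5850 CPM against 3709, 4026 and 3662 CPM (log2 0.67, SE 0.12, adjusted p = 0.000113). The same class II genes are expressed by dendritic cells and B cells, whose marker lists also had higher sums, as given below.

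**Figure D2:**
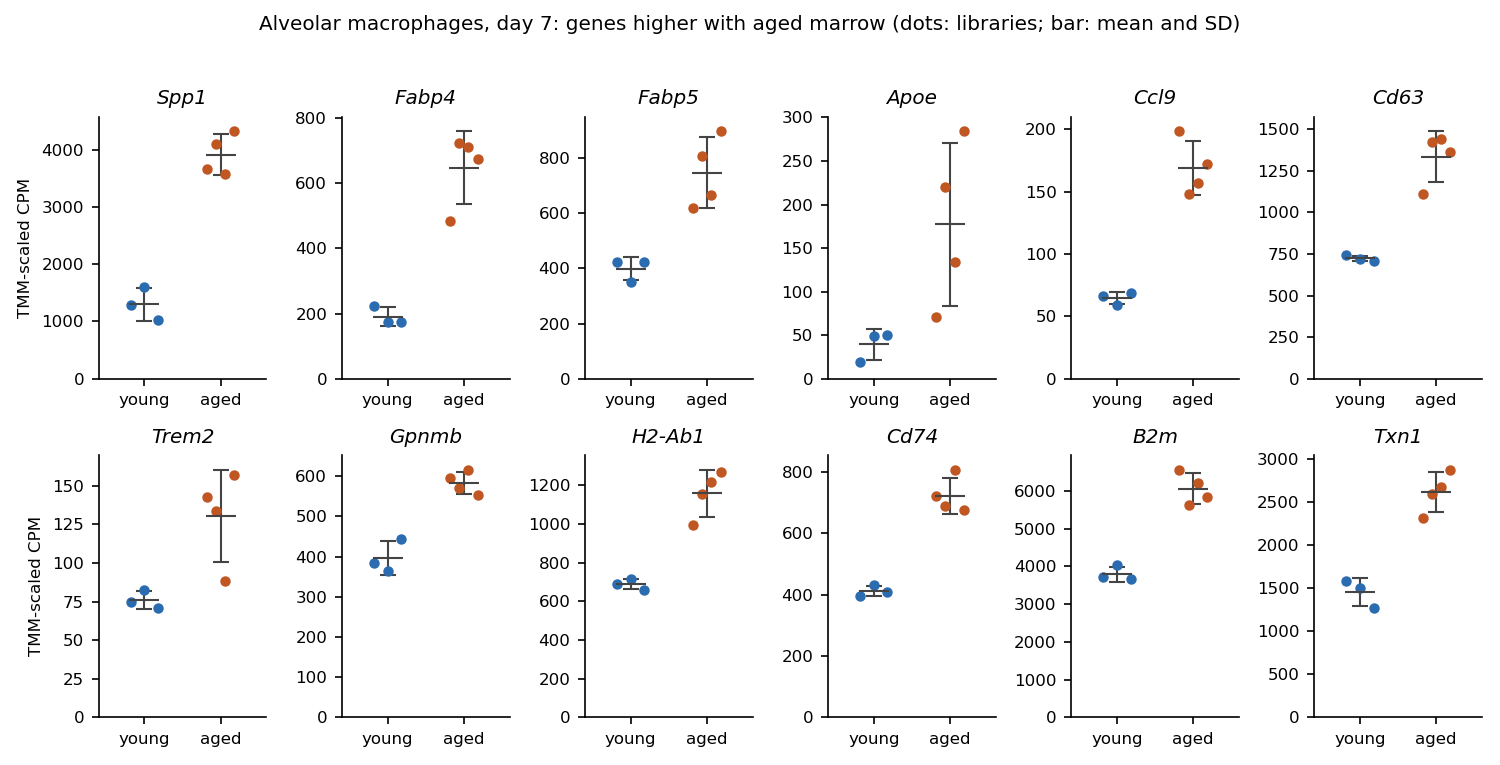
TMM-scaled CPM of 12 genes that were higher with aged marrow in alveolar macrophages at day 7; each dot is 1 library (3 young, 4 aged) and bars give mean and SD. For Spp1 the 4 aged libraries sit at 3583 to 4320 CPM and the 3 young ones at 1018 to 1598 CPM, while for Trem2 the gap between the groups is small, from 82.5 to 88.3 CPM.

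Cells switch on immediate early genes within minutes of a stimulus, cell dissociation included. Of 27 such genes tested, 8 fell: the orphan nuclear receptors Nr4a1, Nr4a2 and Nr4a3, the AP-1 subunits Fosb and Junb, the stress factor Atf3, the phosphatase Dusp1 and Ier5. None rose by edgeR, where 2 were higher at an unadjusted p under 0.05, DESeq2 called 2 higher and limma voom 0. The median log2 difference of the list was -0.36. Nr4a1 was at 222, 304, 180 and 242 CPM with aged marrow and at 587, 727 and 580.5 CPM with young marrow, a 2.66-fold difference of means without overlap (log2 -1.40, SE 0.17, adjusted p = 6.95e-08, lower in 4 of 4 aged libraries). Nr4a2 was at 222, 166, 216 and 147 CPM against 542, 477 and 515 CPM (log2 -1.50, SE 0.20, adjusted p = 4.49e-07). Dusp1, which switches off MAP kinases, was at 746, 781, 1070 and 640 CPM against 1384, 1345 and 1530 CPM (log2 -0.82, SE 0.15, adjusted p = 0.000147). These 3 kept their calls without each library in turn. The count of called members ranged from 4, without young 3, to 10. The labels state no times from dissection to lysis, and the part of tissue handling in these differences was not tested.

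Genes of NF-kappaB signalling, which lipopolysaccharide or TNF turns on, gave 5 lower and 2 higher of 27 tested, with a median of -0.03. The 5 were Nfkbia, Tnfaip3, Tnfaip2, Tnf and Tlr2. Nfkbia, the inhibitor that the pathway induces as its own brake, was at 1864, 1923, 1911 and 2017 CPM with aged marrow and at 3518, 3521 and 3022 CPM with young marrow (log2 -0.79, SE 0.13, adjusted p = 2.58e-05). Tnf, the cytokine, was at 111, 101, 71.98 and 49.1 CPM against 191, 147 and 161 CPM (log2 -1.14, SE 0.27, adjusted p = 0.00717), and its call was lost without aged 4 (adjusted p = 0.0896). Il1b, at 444, 575, 573 and 682 CPM against 733, 637 and 725 CPM, overlapped between the groups (adjusted p = 0.718). Among chemokines the neutrophil attractant Cxcl2 fell, from 3379, 3183 and 3578 CPM with young marrow to 1420, 1399, 1312 and 1287 CPM with aged marrow, 2.5-fold by the means (log2 -1.32, SE 0.23, adjusted p = 0.00372). Its call was not made by limma voom. The other 5 called chemokine genes of 23 tested rose. Among them were Ccl9, at 198, 148, 157 and 173 CPM against 66.4, 59.3 and 69.001 CPM (log2 1.34, SE 0.24, adjusted p = 0.000204), and the monocyte attractant Ccl2, at 63.5, 65.1, 32.7 and 61.1 CPM against 19.4, 25.8 and 10.4 CPM (log2 1.73, SE 0.45, adjusted p = 0.0181, but 0.194 without young 3). Without young 3 the chemokine list held 3 calls in place of 6. The chemokine changes did not run in 1 direction.

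The promoters of 3 genes that fell show the kinds of sequence through which such rapid genes are known to be switched on. They are the 250 bases before the RefSeq start, 5′ to 3′ on the gene's strand, on build GRCm38.p6. Capitals mark TGCGTCA, a variant of the cAMP response element, in Nr4a1 and the kappaB motif (3 G, any 2 bases, 3 T and 2 C), or its reverse complement, in Nfkbia and Cxcl2. Nr4a1 is read from chr15:101266596-101266845 on the plus strand and holds 4 matches, Nfkbia from chr12:55492648-55492897 on the minus strand with 1 match, and Cxcl2 from chr5:90903649-90903898 on the plus strand with 2 matches.
Nr4a1: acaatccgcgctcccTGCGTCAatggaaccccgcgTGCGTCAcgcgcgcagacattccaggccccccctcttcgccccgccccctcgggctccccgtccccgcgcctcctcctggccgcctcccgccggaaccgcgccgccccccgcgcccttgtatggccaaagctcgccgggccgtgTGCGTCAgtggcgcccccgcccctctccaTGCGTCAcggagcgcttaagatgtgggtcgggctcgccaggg
Nfkbia: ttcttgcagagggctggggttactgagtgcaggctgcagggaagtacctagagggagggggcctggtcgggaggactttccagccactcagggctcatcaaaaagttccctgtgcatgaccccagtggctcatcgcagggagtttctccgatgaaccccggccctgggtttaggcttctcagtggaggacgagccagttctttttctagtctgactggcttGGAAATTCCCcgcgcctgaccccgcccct
Cxcl2: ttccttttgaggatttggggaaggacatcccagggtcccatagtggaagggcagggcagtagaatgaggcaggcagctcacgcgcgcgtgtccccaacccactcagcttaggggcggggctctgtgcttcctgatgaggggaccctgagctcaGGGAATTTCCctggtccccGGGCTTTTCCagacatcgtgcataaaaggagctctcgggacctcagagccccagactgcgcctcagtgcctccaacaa
Windows of 300 bases, from 250 before to 50 after each start, were searched on both strands in 6986 tested genes that had one. TGCGTCA was in 4.67% of them, the full element TGACGTCA in 3.76%, the AP-1 letters TGANTCA in 6.1% and the kappaB motif in 2.0%. The motifs were counted separately, and TGACGTCA and TGCGTCA share their ending. Of the 8 immediate early genes that fell, 2 held TGCGTCA (Nr4a1 and Fosb), 1 held TGACGTCA (Dusp1) and 0 held the AP-1 letters. Of the 5 NF-kappaB genes that fell, all with a window, 2 held the kappaB motif (Nfkbia and Tnfaip3), beside 7 of 21 list members tested with a window. A match describes the sequence and says nothing of binding in these cells.

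Mrc1, Pros1 and Thbd fell, while the resident list as a whole had as many rises as falls. Mrc1, the mannose receptor CD206, was at 769, 933, 975 and 840 CPM with aged marrow and at 1450.2, 1438 and 1467 CPM with young marrow (log2 -0.72, SE 0.14, adjusted p = 0.000503). Pros1, the protein S ligand that bridges dying cells to MerTK-family receptors, was at 39.7, 86.8, 78.5 and 71.9 CPM against 188, 193 and 180.3 CPM (log2 -1.36, SE 0.22, adjusted p = 3.23e-05). Thbd, thrombomodulin, an anticoagulant receptor, was at 135, 123, 121 and 110 CPM against 304, 338 and 277 CPM (log2 -1.35, SE 0.21, adjusted p = 1.67e-05). None of the 3 overlapped between groups, and all 3 stayed called without each library in turn. Of 27 scavenger and efferocytosis receptors and ligands tested, Mrc1 and Pros1 fell and 0 rose (2 were higher at an unadjusted p under 0.05, DESeq2 called 1 higher and limma voom 0).

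**Figure D3:**
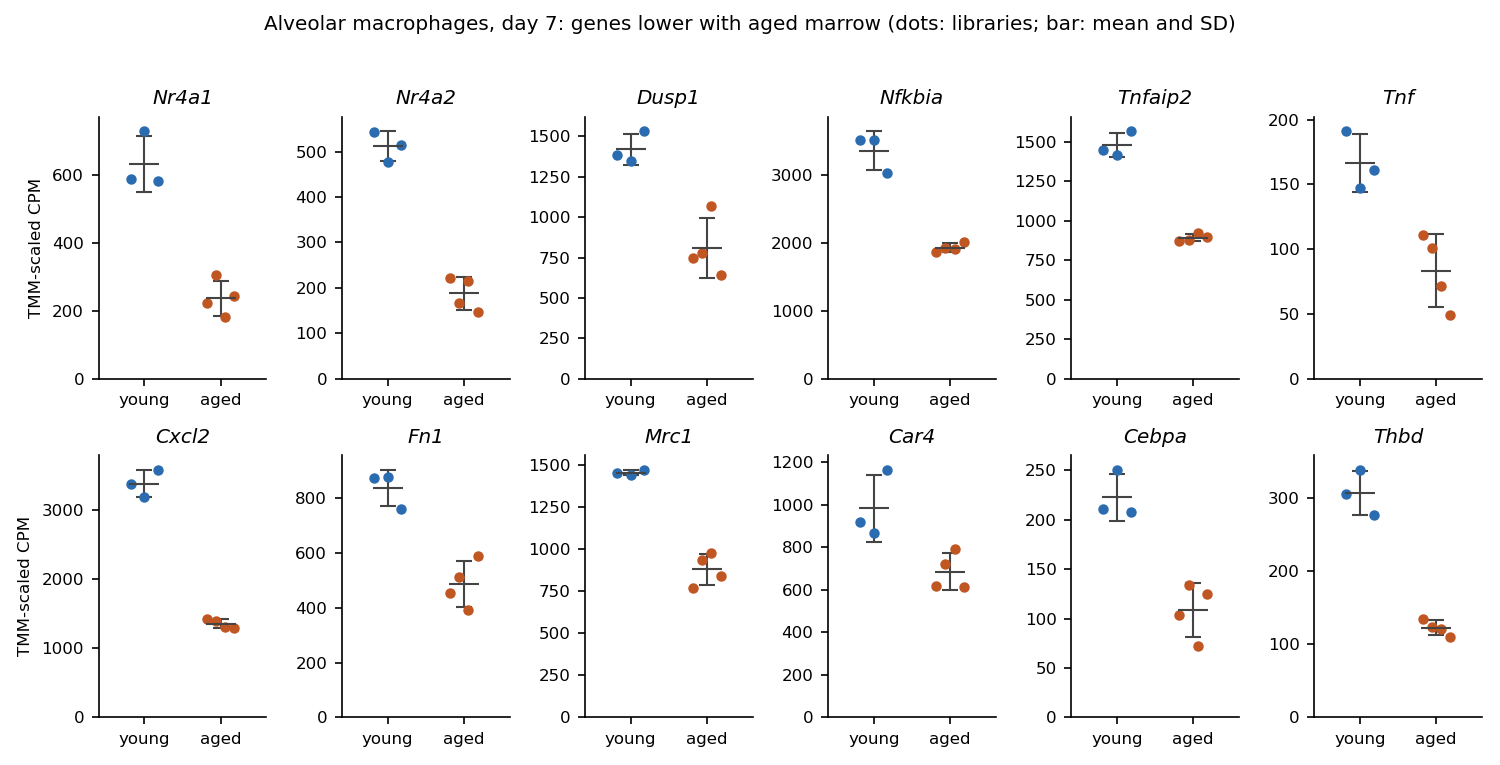
TMM-scaled CPM of 12 genes that were lower with aged marrow in alveolar macrophages at day 7; each dot is 1 library (3 young, 4 aged) and bars give mean and SD. For Cxcl2 the young libraries sit at 3183 to 3578 CPM and the aged ones at 1287 to 1420 CPM. The 2 groups are apart in all 12 panels, but the 12 were chosen among called genes, most of which did not overlap.

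Few genes were called in the remaining lists. Of 76 ribosomal protein genes tested 4 rose, among them Rpl17 (log2 0.97, SE 0.17, adjusted p = 0.000124), and these are families with many near-identical copies that the counting could split. Without aged 3 the list held 1 call. The difference was positive for 60 of the 76 and negative for 16, with a median log2 difference of 0.25. At an unadjusted p under 0.05, 26 were higher and 1 lower. Of 55 nuclear genes of oxidative phosphorylation 4 rose and 1 fell, and without aged 4 the list held 0 called genes. Here 43 had a positive difference and 12 a negative one (median log2 0.25), with 13 higher and 4 lower at an unadjusted p under 0.05. Of 8 genes encoded by mitochondrial DNA edgeR called 0 (3 were higher at an unadjusted p under 0.05; DESeq2 and limma voom called 0). The antioxidant and iron list had 3 higher of 24: Txn1, Blvrb and the ferritin chain Fth1. Blvrb lost its call in 4 and Fth1 in 5 of the 7 fits that left out a library, and without young 2 the list held 1 call. Txn1, thioredoxin, was at 2308, 2592, 2673 and 2868 CPM against 1580, 1505 and 1274 CPM (log2 0.85, SE 0.14, adjusted p = 4.02e-05). Of 45 cell cycle genes only the replication helicase Mcm6 was called, lower with aged marrow (log2 -1.36, adjusted p = 0.0273, but 0.154 without young 3), and the proliferation marker Mki67 overlapped between groups (adjusted p = 0.902). The cell cycle list had 10 positive and 35 negative differences (median log2 -0.33), with 1 higher and 6 lower at an unadjusted p under 0.05. Of 40 lysosome and autophagy genes 3 rose (Lamp1, Ctsl and Npc2), of 23 glycolysis and hypoxia genes Hk3 rose and of 14 complement genes C1qa rose; each of these lists held 0 calls without 1 of the libraries. In the alternative activation list Arg1 and Ccl22 rose and Mrc1 and Cdh1 fell of 15, and without young 3 that list held 1 call. In the interferon list 3 of 35 rose, Slfn5, Slfn8 and Ly6e. Slfn5 was at 55.5, 36.1, 26.2 and 46.7 CPM against 2.8, 10.3 and 0.86 CPM (log2 3.5999, SE 0.57, adjusted p = 1.94e-05).

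A few list members fell singly. In the TGF-beta and IL-10 list these were Tgif1 and Ski, both repressors of SMAD signalling, of 21 tested. Ski lost its call in 5 of the 7 fits that left out a library, and with DESeq2 and limma voom. Tgif1 was at 39.7, 54.2, 88.3 and 76.7 CPM against 138, 160 and 185 CPM (log2 -1.23, SE 0.28, adjusted p = 0.00407, but 0.0632 without young 3). Of 16 genes known for mutations in clonal haematopoiesis, the splicing factor Sf3b1 fell, at 190, 220.5, 255 and 258 CPM against 393, 402 and 430.4 CPM (log2 -0.79, SE 0.17, adjusted p = 0.00216). Gdf15, a stress cytokine from the p53 list, fell by 0.67 on the log2 scale (SE 0.16, adjusted p = 0.011), a call that was lost without young 3 (adjusted p = 0.0583). The stress lists gave 1 to 3 calls each, in both directions for heat shock: Hspa1a and Hspe1 rose and Hsph1 fell of 16 tested, and without aged 4 that list held 0 calls. In the unfolded protein response list Atf3 and Pdia6 fell of 22, and in the p53 and senescence list Igfbp7 rose beside the fall of Gdf15 of 23. The first of these lists held 0 calls without aged 4 and the second 0 without young 3. Pdia6 lost its call in all 7 fits that left out a library and Igfbp7 in 4.

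The sums of some marker lists of other cells were higher with aged marrow, at low levels. The summed CPM of the B cell list was 203 to 336 with aged marrow and 31.9 to 60.9 with young marrow, and of its 5 tested members 4 rose: Ebf1, Bank1, Pax5 and Cd79b. Ebf1, a B lineage transcription factor also found in stromal cells, was at 87.3, 134, 65.4 and 109 CPM against 13.8, 23.2 and 7.8 CPM (log2 2.94, SE 0.44, adjusted p = 7.83e-06). Ebf1 stayed called without each library in turn, and it was the only one of the 4 called without young 3: adjusted p was then 0.0826 for Bank1, 0.152 for Pax5 and 0.254 for Cd79b. Cd79a, a defining B cell gene, had 3 counts in aged 4 and 0 elsewhere. The T cell list summed to 71.9 to 127 CPM against 13.8 to 33.6 CPM, with Cd3e at 0 in all 7 libraries. Of its 2 tested members edgeR, DESeq2 and limma voom called 0, though 2 were higher at an unadjusted p under 0.05. The neutrophil list summed to 476 to 700 CPM against 263 to 311 CPM, with Ly6g at 0 in all 7, and S100a8 was at 238, 412, 314 and 406 CPM against 141, 103 and 121 CPM (log2 1.54, SE 0.21, adjusted p = 4.49e-07). Of the 8 tested members of that list 2 rose, S100a8 and S100a9. The call of S100a9 was lost without aged 4, young 2 or young 3.

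Sums of stromal and epithelial lists were also higher, while few of their members were called: 2 of 6 fibroblast genes rose (Col1a2 and Dcn), 0 of 10 endothelial genes were called (7 were higher at an unadjusted p under 0.05; DESeq2 called 3 and limma voom 0), and the 1 call among 6 epithelial genes, Cdh1, was lower. The fibroblast list held 0 calls without aged 2, as did the epithelial list. Fibroblast genes summed to 95.2 to 225 CPM against 46.6 to 55.4 CPM, endothelial genes to 272 to 508 CPM against 148 to 191 CPM, and alveolar epithelial genes to 267 to 354 CPM against 193 to 250.01 CPM. The dendritic cell list summed to 661 to 754 CPM against 505 to 574 CPM. Of its 7 tested members 1 rose, Ccl22, whose groups overlapped, and without aged 2 the list held 0 calls. DESeq2 called 2 of its members higher and limma voom 0. For each of these lists, for the B cell, T cell and neutrophil lists and for the monocyte-derived macrophage list, the groups did not overlap, and the exact two-sided permutation test over 4 against 3 libraries gave p = 0.0571, the smallest it can give (0.108 after Benjamini-Hochberg adjustment over 17 measures of composition). The sums of the red cell and platelet, NK cell, regulatory T cell and eosinophil lists overlapped. So did that of the classical monocyte list (769 to 991 CPM against 823 to 959 CPM), but it holds Nr4a1, which fell and made up 580.5 to 727 CPM of it with young marrow. Without Nr4a1, a split chosen after its values were seen and not tested, the list summed to 547 to 749 CPM with aged marrow and to 232 to 313 CPM with young marrow, without overlap. Of the 12 tested members of the full list 3 rose (Hp, Ly6a and Ace) and 1 fell (Nr4a1). In all, 10 had a positive difference, and the median log2 difference was 1.65. Not all of these genes are specific to classical monocytes, so rises and falls in the list do not measure that cell type. Ly6c2 and Ccr2, also in the list, overlapped between the groups and were not called by edgeR (adjusted p = 0.0851 and 0.159), though DESeq2 called Ly6c2. In this list, the acute phase gene Hp rose from 5.5, 5.2 and 4.3 CPM to 119, 54.2, 42.5 and 62.3 CPM (log2 3.72, SE 0.49, adjusted p = 4.38e-07), and Ly6a, a surface marker that also rises with interferon, rose from 63.7, 43.8 and 63.8 CPM to 103, 264, 203 and 295 CPM (log2 1.98, SE 0.30, adjusted p = 2.04e-05). The share of counts from mitochondrial DNA was 3.17% to 3.86% against 2.83% to 3.22%. The part of other cells or of free RNA in the genes that rose was not tested.

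**Figure D4:**
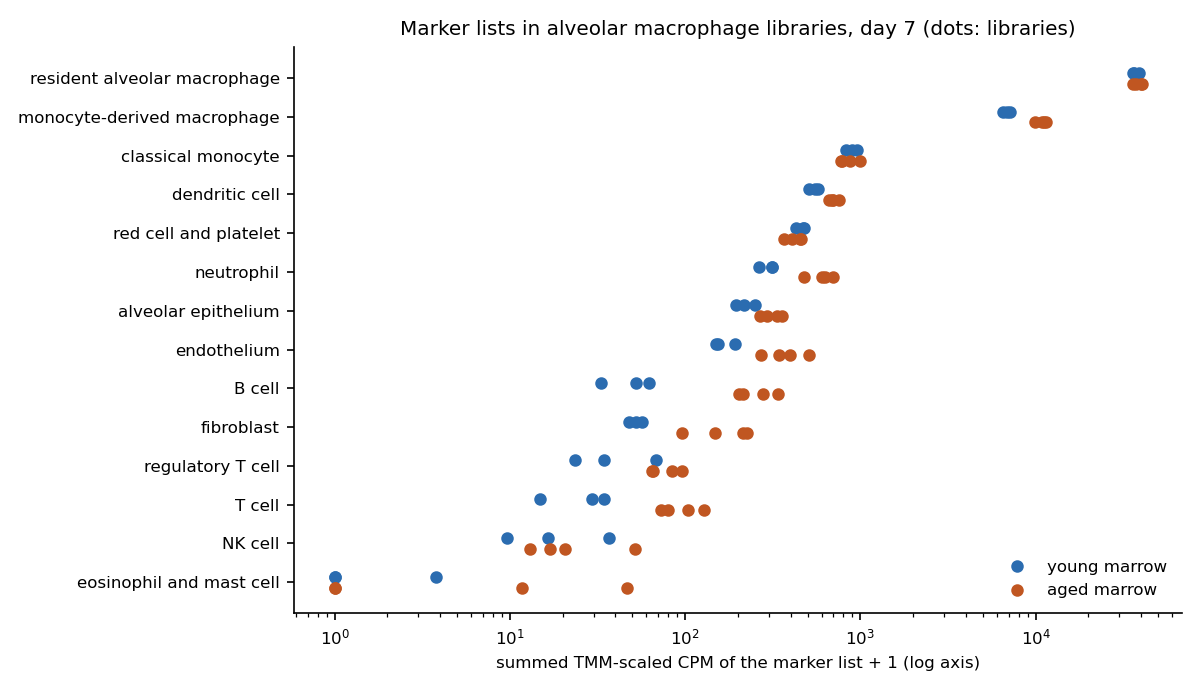
Summed TMM-scaled CPM plus 1 (log axis) of 14 marker lists in alveolar macrophage libraries at day 7; each dot is 1 library, blue for young and orange for aged marrow. The resident list lies near 35848 to 40254 CPM in all libraries, and the B cell list shows a gap between 60.9 CPM, the highest young library, and 203 CPM, the lowest aged one.

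The largest fold changes came from genes with few counts. The 12 named for the largest rise were Pou2af1, Lacc1, Slc1a3, Dpt, Il1r1, Cd79b, Slamf7, Pax5, Slfn8, Csgalnact1, Dtna and Tm4sf1, with 19 to 68 counts over the aged libraries and at most 4 over the young. Pou2af1, a B cell coactivator, had 28 counts with aged marrow and 0 with young marrow and was at least 11.1-fold higher. This bound takes 3 counts over the young group as the floor and covers counting error only. Slamf7, a surface receptor of activated macrophages and plasma cells, had 68 counts against 3, a ratio of counts per total of 27.0 with a 95% interval of 8.85 to 134, and was the only one of the 12 to stay called without each library in turn (log2 4.68, SE 0.75, adjusted p = 2.06e-05). Among the 12 with the largest fall by the same rule were Ganc, Elac1, Xrcc6, Sec14l2, Hlcs, Wdr13, Toe1, Nek1, Ncapd2, Glt8d1 and Hsph1, with 0 to 11 counts over the aged libraries and 21 to 60 over the young. Ganc, an alpha-glucosidase, and Elac1, a tRNA-processing enzyme, had 0 counts in all aged libraries and were at least 5.88-fold and 7.85-fold lower. All 12 lost their call without 1 or more libraries.

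At day 7 the same contrast called fewer genes in the population named MoAM, with 4 libraries per marrow age. In a fit of the 15 day 7 libraries of both populations, the aged against young difference was called for 515 genes in alveolar macrophages and for 67 in MoAM. The difference between the differences was tested itself and was called for 202 of 8686 genes (2.33%): it was more positive in alveolar macrophages for 143 and more negative for 59. The count ranged from 111 to 240 when 1 library was left out, lowest without young 3, and was 118 without aged 4 and 132 without the MoAM aged 2 library. Spp1 rose in both populations, by 1.59 (log2) in alveolar macrophages and by 0.47 in MoAM (SE 0.12, adjusted p = 0.0448), and the difference of 1.12 was called (SE 0.18, adjusted p = 8.79e-05). Fabp4 differed by -0.28 in MoAM (SE 0.24, adjusted p = 0.964), where it was at 17.6 to 39.1 CPM, and the interaction was 2.07 (SE 0.31, adjusted p = 3.17e-06).

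Several genes had differences in MoAM below their standard error. Apoe differed there by -0.02 (SE 0.19) and Cd74 by -0.02 (SE 0.11), and the interactions of both genes were called, at 2.25 (SE 0.37, adjusted p = 0.00264) and 0.82 (SE 0.17, adjusted p = 0.00204). Among the immediate early and NF-kappaB genes, Nr4a1 differed by 0.10 in MoAM (SE 0.14, interaction -1.51, adjusted p = 1.62e-06), Nr4a2 by -0.07 (SE 0.13, interaction -1.45, adjusted p = 1.62e-06) and Nfkbia by 0.30 (SE 0.09, adjusted p = 0.149, interaction -1.11, adjusted p = 1.42e-07). Of the 28 immediate early genes tested for the interaction 6 were called, and of 35 profibrotic genes 11. Thbd differed with opposite sign in the 2 populations, at -1.36 in alveolar macrophages and 0.58 in MoAM (SE 0.19, adjusted p = 0.185), with an interaction of -1.94 (SE 0.28, adjusted p = 1.62e-06). The B cell gene Ebf1 fell in MoAM (-1.30, SE 0.29, adjusted p = 0.00603) and rose in alveolar macrophages, and Bank1 did the same in the fit of both populations (-1.68 in MoAM, SE 0.43, adjusted p = 0.0307). Ly6a rose in both (1.39 in MoAM, SE 0.17, adjusted p = 2.69e-08), and its interaction was not called (0.60, SE 0.29, adjusted p = 0.339).

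**Figure D5:**
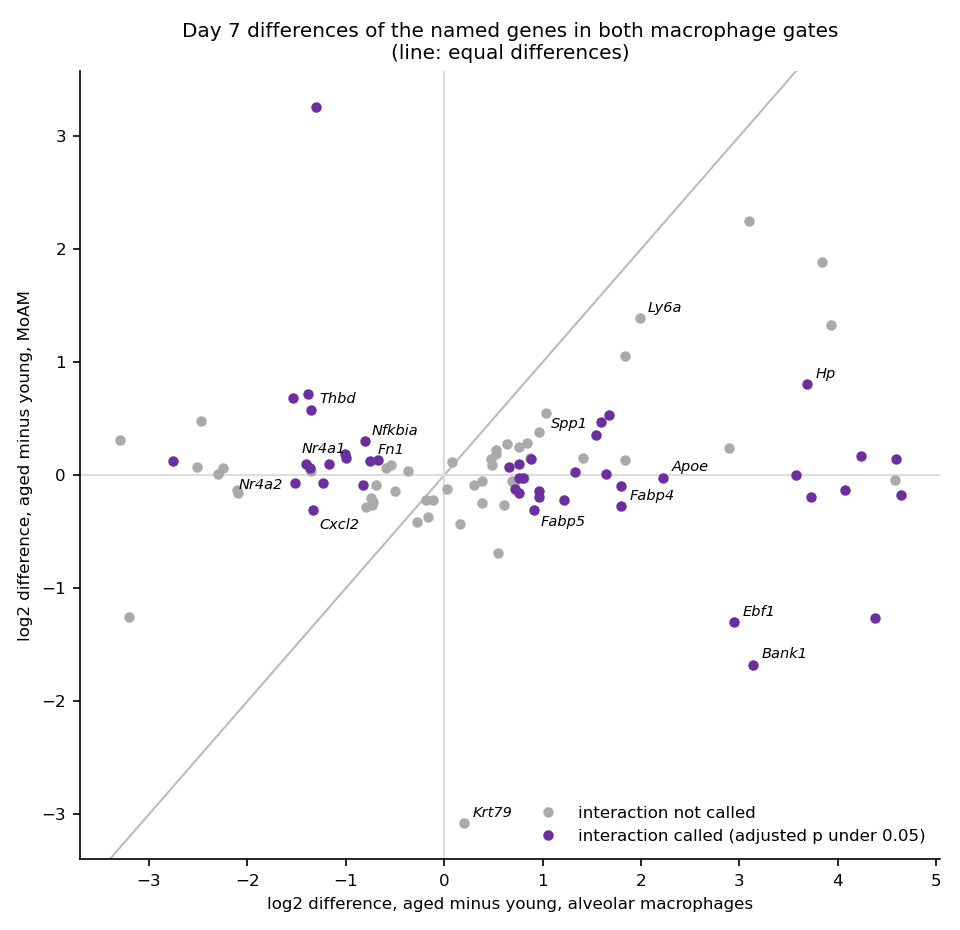
Log2 difference, aged minus young marrow, in alveolar macrophages (horizontal) and in MoAM (vertical) at day 7 for 99 named genes with a difference under 5 in size in alveolar macrophages; purple dots are the 46 whose interaction was called, and the grey line marks equal differences. Most purple dots lie near 0 on the vertical axis, as Apoe (-0.02) and Nr4a1 (0.10) do, while Ebf1 lies at -1.30 in MoAM. Most of these genes were named because they were called in alveolar macrophages or for the interaction. This pattern therefore follows in part from the choice of genes and does not show that MoAM lack a difference.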

How the data were processed

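Sorted lung cells were profiled with a 3' RNA-seq kit with molecular identifiers (QuantSeq FWD). The authors deposited 1 table of raw counts per gene for 44 libraries and 19910 genes, 1203 without a count. The submitters' processing notes name Trim Galore 0.6.6, STAR 2.7.9a, featureCounts, Picard, FastQC and edgeR 3.36.0 without their roles, and both mm10 and GRCm39, so no gene coordinates were taken from the table. Whether identifiers were collapsed, and the strand setting, are stated nowhere in the labels: counts may include PCR copies, and genes that overlap or have an antisense partner are uncertain. Columns were assigned by the order of the sorted headers.

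Genes were kept by filterByExpr, scaled by TMM and tested with edgeR 4.0.16 (R 4.3.3; robust quasi-likelihood F test, Benjamini-Hochberg) in 13 alveolar macrophage libraries, day 14 included, whose 4 groups shared 1 spread and had no replicate block. The interaction used the 15 day 7 alveolar macrophage and MoAM libraries. Summed marker levels were compared by exact permutation tests. Alternatives used DESeq2 1.42.0, limma 3.58.1 (voom), other scaling, filters and libraries, and the printed headers. The steps were tested on simulated data.

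Named genes were up to 12 in each direction with the largest fold change among called genes with 10 CPM or more in a group and no overlap, up to 3 called members per list, a panel of 30 genes, and up to 5 interaction genes in each direction. Other list members are named as calls without values. The 39 lists, the panel and the comparison were chosen with earlier results of these data known. Results of a few genes are not reported here.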

Additional observations from a re-analysis of the deposited data

Results flagged for a closer look

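In 8 of 131 values checked, 1 library with aged marrow lay far from the other 3 of its group, where chance gives about 1 in 20. Aged 2 was high for Pou2af1 (28.9 CPM). Aged 3 was low for Il1r1 (6.54 CPM), Tm4sf1 (16.4 CPM), Ccl2 (32.7 CPM) and Hspa1a (45.8 CPM). Aged 4 was high for Tgfb1 (99.4 CPM), Tiam2 (31.1 CPM) and Xrcc6 (4.79 CPM).

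The aged against young difference differed between alveolar macrophages and MoAM for 53 named genes by the interaction test, given as the log2 difference in alveolar macrophages minus that in MoAM. Among macrophage, lipid and matrix genes these were Spp1 (1.12), Fabp4 (2.07), Fabp5 (1.22), Apoe (2.25), Cd63 (0.74), Arg1 (4.45), Fn1 (-0.89), Cebpa (-1.15), Pros1 (-1.43), Thbd (-1.94), Cdh1 (-1.20) and Ccr2 (1.11). Among antigen presentation and chemokine genes they were Cd74 (0.82), H2-Ab1 (0.66), H2-Eb1 (0.91), H2-Aa (0.84), B2m (0.59), Ccl9 (1.30), Ccl2 (1.90), Ccl22 (5.46) and Cxcl2 (-1.02). Immediate early, NF-kappaB and stress genes were Nr4a1 (-1.51), Nr4a2 (-1.45), Dusp1 (-0.74), Nfkbia (-1.11), Tnf (-1.27), Marcks (1.64), Gdf15 (-0.81), Hspa1a (1.44), Tgif1 (-1.16) and Blvrb (1.16). Genes of the other lists were Ebf1 (4.25), Bank1 (4.82), Pax5 (5.64), S100a8 (1.19), S100a9 (1.14), Hp (2.88), Slfn5 (3.57), Slfn8 (4.06), Hk3 (3.92) and Ndufa5 (0.78). Genes named for their size, most with few counts, were Pou2af1 (6.76), Lacc1 (7.35), Slc1a3 (7.30), Slamf7 (4.83), Csgalnact1 (4.20), Hlcs (-2.89), B3gnt5 (7.52), Ust (6.88), Tiam2 (6.76), Mxra8 (-4.56), Rcl1 (-2.22) and Txlna (-2.11).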

How the results depend on the processing

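The number of called genes between aged and young marrow, 344, was 47 in the fit of all libraries, 203 with limma voom, 192 with the replicate block and 1165 by the printed headers, where 71.6% were higher in place of 57.6%. It ranged from 114 to 363 when 1 library was left out. DESeq2 called 475, and scaling by relative log expression 361. The interaction count, 202, was 92 with the replicate block and ranged from 111 to 240 with 1 library left out. Libraries of the same number in the 2 groups showed little shared deviation (r = -0.0145, 0.00859 and 0.0509 over 3368 genes). Counting error in libraries this shallow brings r toward 0, so the check cannot exclude that the numbers pair these 7 libraries. Pairing was not checked in the day 14 and MoAM libraries, which the blocked fits also block. Leaving out the day 14 aged libraries, whose headers carry another number (1218) by the sorted order, was chosen after seeing the data and gave 379 genes. It raised the called ribosomal protein genes from 4 to 13.

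Among the 94 called named genes, 33 kept their call whichever library was left out, and 0 changed sign. Of the uncalled ones 5 did. Siglecf was at -0.20 with limma voom, -0.00336 without a filter, -0.00308 with 10 counts in 3 libraries, and ranged from -0.36 to 0.27 with 1 library left out (lowest without aged 3, and -0.09 without young 1). Krt79 was at -0.15 with limma voom and from -0.15 without aged 3 to 0.52, and Csf2ra from -0.27 to 0.042, without young 3. Tgfb1 was at -0.29 with the block and from -0.33 without aged 4 to 0.52 with another library left out. Mki67 was at -0.00086 in the fit of all libraries, -0.23 with the block, -0.23 without aged 4 and, with 1 library left out, from -0.33 without young 3 to 0.51. The NK cell sum, 4.50 CPM higher with aged marrow, ranged from -4.197 without aged 2 to 12.5 and was -1.20 without young 3. The causes were not tested. Depth limits genes of few counts most in aged 1, which holds 126283 counts.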
